A study of Rattus norvegicus with 6 samples.

Results

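The genes described here are 39 rat genes of the actin-linked transcription programme: the serum response factor Srf, genes known as targets of Srf and its actin-sensing cofactors, and targets and factors of the YAP/TEAD pathway. They were chosen by name and with earlier results of these data known. Array probes were matched through their RefSeq accession, and the probe with the brightest mean signal stood for each gene. Of the 39 genes 30 had such a probe, out of 13823 named protein-coding genes on the array, and all 30 were well above background in each of the 6 scans. The other 9 genes, Acta2, Cnn2, Flnc, Filip1l, Tgfb1i1, Tead1, Tead4, Yap1 and Wwtr1, had no probe matched by accession and were not measured here.

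Monomeric actin holds the myocardin-related cofactors (MRTFs) in the cytoplasm. When actin polymerises, these cofactors enter the nucleus and act with Srf on genes of the contractile and adhesion apparatus, through a DNA element called the CArG box. YAP and its relative TAZ (gene Wwtr1) are held back by the kinases of the Hippo pathway and respond to the same cytoskeletal tension, and they act through DNA-bound TEAD factors. Serum is a classical stimulus of both pathways.

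RNA came from H9c2, a clonal myoblast line from embryonic rat heart. The H/R group (hypoxia and reoxygenation, 3 samples) spent 1 h at 1% O2, 5% CO2 and 94% N2 in medium that lacked serum and glucose, followed by 3 h of normal oxygen. The control group (3 samples) is labelled only as control, and both groups had been grown in DMEM with 4500 mg/L glucose and 10% serum. No label gives the medium or gas of the controls during the experiment. Low oxygen, the removal of serum and glucose, and the reoxygenation that followed therefore cannot be told apart. The medium during the 3 h of normal oxygen is not given here.

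Replicates 2 and 3 of each group came from the same slide position and behaved as 2 scans of 1 array: the median difference per spot was 0.025 log2 units in control and 0.028 in H/R, against 0.128 to 0.132 between other scans of a group. They were therefore averaged, and every test below compares 2 arrays with 2. No slide position held both groups, and group cannot be told apart from position. Between 58.4% and 71.1% of spots were well above background per scan, and none was saturated. Of 15 probed cardiac and skeletal myoblast markers 14 were well above background in all 6 scans, the exception being Myf6. All 7 probed fibroblast markers were, too. Of 6 probed neural markers Gfap and Mbp were well above background in all 6 scans, Syt1 in 1, and Rbfox3, Slc17a7 and Gad1 in none. Of 7 probed leukocyte markers Cd68, Csf1r, Aif1 and Cd14 were in all 6 scans and Ptprc, Adgre1 and Itgam in none. Of 4 probed endothelial markers Tek was in all 6 scans, Cldn5 in 1 control and 3 H/R scans, and Pecam1 and Cdh5 in none. Among 4 probed epithelial markers these were Epcam and Krt8 in all 6, Cdh1 in 2 H/R scans and Krt18 in none. Myod1 fell by 1.48 and Nppb by 1.41, while Tnnt2 (1.13), Myh6 (0.99), Pdgfrb (0.51) and Tek (1.11) rose on the log2 scale. The part of these marker changes in the results below was not tested.

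The promoter windows show the DNA elements through which the programme is known to act. RefSeq windows on the GRCr8 build, reaching from 250 bases before to 50 bases after a start, were found for 30 of the 39 genes. The CArG box (CC, then 6 letters that are each A or T, then GG, the same on both strands) was present in 5 of 35 windows of these genes, against 548 of 33469 windows of all genes (1.64%). It occurred in Srf, Fhl2 (at both of its starts shown), Fhl1 and Cnn2. The TEAD-type motif GGAATG, searched on both strands, was present in 13 of 35 windows against 14.2% of all windows. In the YAP/TEAD branch it occurred in Ccn1, Ccn2, Amotl2, Ajuba and Yap1. In the SRF/MRTF branch it occurred in Acta2, Cald1, Fhl2, Flna, Flnc, Tagln2, Vcl and Zyx. Of the genes that fell after H/R, Wdr1, Actn1, Vasp, Fermt2, Pdlim5 and Axl showed neither motif or had no window. The end of a CArG box can overlap the start of a GGAATG. The stretches below carry the motif in capitals with 20 bases on either side, 5′ to 3′ on the strand of the gene. They are shown because Srf, Fhl2 and Ccn1 fell while Fhl1, Ccn2 and Amotl2 did not pass the test. The actins Actg1 and Acta1, which are not among the 39, are given as textbook CArG genes.
Srf, chr9:21923975-21924044, plus strand: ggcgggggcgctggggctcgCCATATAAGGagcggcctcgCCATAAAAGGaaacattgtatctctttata
Fhl2, first start, chr9:52954606-52954655, minus strand: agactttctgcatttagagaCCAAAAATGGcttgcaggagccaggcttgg
Fhl2, second start, chr9:52923355-52923404, minus strand: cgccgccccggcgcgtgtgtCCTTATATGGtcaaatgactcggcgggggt
Fhl1, chrX:139638374-139638423, plus strand: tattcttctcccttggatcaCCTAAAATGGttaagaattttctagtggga
Actg1, chr10:106121012-106121061, minus strand: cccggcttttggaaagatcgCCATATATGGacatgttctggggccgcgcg
Acta1, chr19:68784259-68784308, minus strand: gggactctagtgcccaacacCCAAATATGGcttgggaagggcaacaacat
Ccn1, chr2:237225777-237225822, minus strand: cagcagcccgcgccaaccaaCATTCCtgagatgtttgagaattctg
Ccn2, chr1:22624681-22624800, minus strand: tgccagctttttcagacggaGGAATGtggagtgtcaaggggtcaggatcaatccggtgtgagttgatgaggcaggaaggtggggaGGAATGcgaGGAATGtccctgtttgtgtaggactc
Amotl2, chr8:112182530-112182575, plus strand: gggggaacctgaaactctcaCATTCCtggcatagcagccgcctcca

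The Srf window held a pair of CArG boxes, 81 and 61 bases before the start. In Ccn2 the motif GGAATG stood 166, 101 and 92 bases before the start, whereas Ccn1 and Amotl2 each held its reverse complement once. A match describes the letters of a window and does not show that a factor binds there.

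Among the 30 measured genes 9 fell after H/R and none rose, with limma's p adjusted over 15899 probes by Benjamini-Hochberg and a threshold of 0.05. That is 30% lower, beside 9.62% of the 10001 coding genes tested that fell and 16.2% that rose. The genes were listed with earlier results of these data known, so these shares are a description and no test of the list. None of the 30 rose at an unadjusted p under 0.05 either. The share of all coding genes at that unadjusted threshold is not given here. This and the later unadjusted counts therefore have no background beside them. The genes that fell were Srf itself, Wdr1, Actn1, Vasp, Fermt2, Pdlim5, Fhl2, Ccn1 and Axl. The median log2 difference was -0.18 over the 30 genes and 0.07 over all coding genes tested. In 15 of the 30 genes all 3 H/R scans lay below all 3 control scans, as in 27.9% of coding genes. In 2, Tagln2 and Amotl2, they lay above, as in 38.2% of coding genes, and the remaining 13 overlapped. In the SRF/MRTF branch 7 of 23 genes fell (median -0.27) and in the YAP/TEAD branch 2 of 7 (median -0.08).

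The calls rested on few arrays. All 9 differences kept their sign under each of 20 alternative settings. Leaving out scans or arrays could not change it, since the groups of these genes did not overlap. Only Srf, Wdr1, Vasp and Pdlim5 passed the threshold when either H/R array was left out, where 2.36% (without array 1) and 2.48% (without array 2) of coding genes fell. None passed after normexp background correction, where 0% of coding genes passed in either direction and 9 of the 30 were lower at an unadjusted p under 0.05. Vasp and Pdlim5 alone passed when dim probes were not filtered out, where 0.81% of coding genes fell and 2.29% rose.

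**Figure D1:**
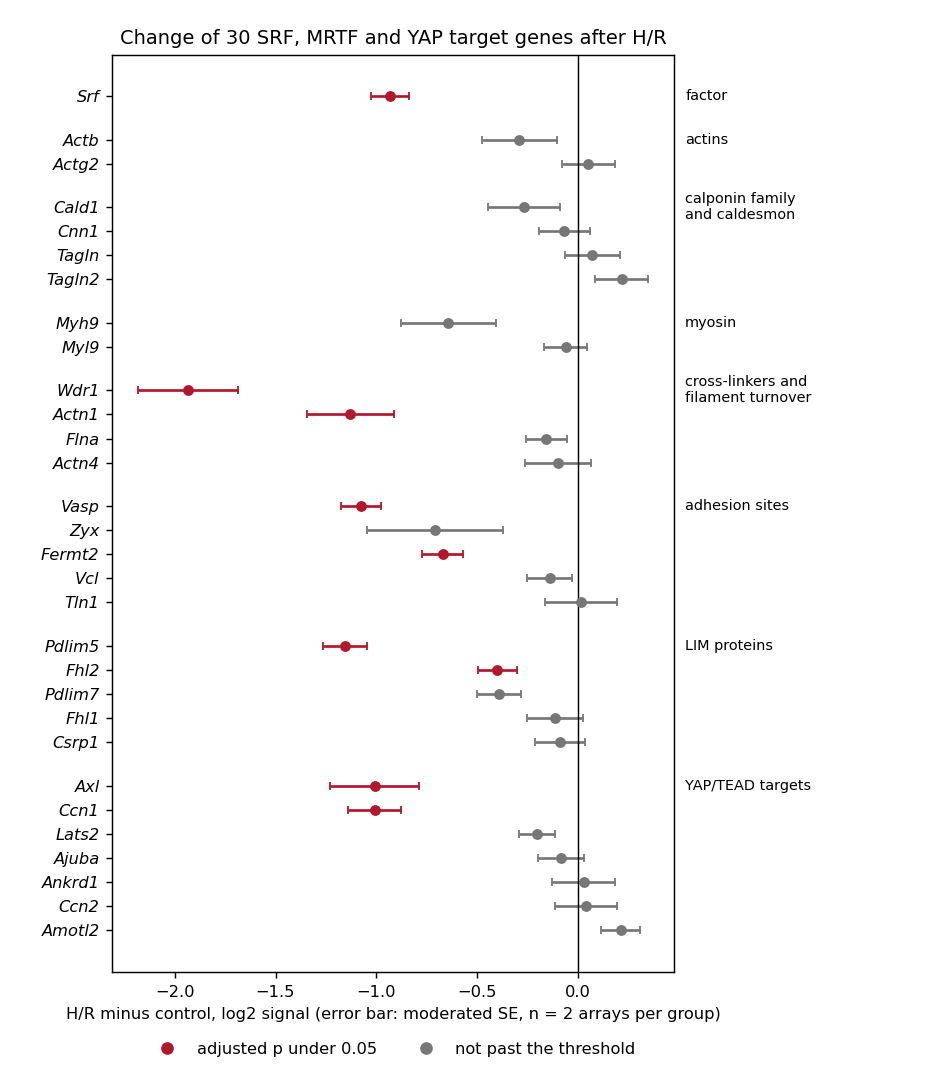
Log2 difference of H/R from control (x axis) for the 30 measured genes, grouped by role, with the moderated standard error from 2 arrays per group; red marks an adjusted p under 0.05. The 9 red points all lie left of zero, from -0.40 for Fhl2 to -1.94 for Wdr1.

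Srf, the DNA-binding partner of the MRTFs, fell to 0.525 of its control signal. Its level, the log2 signal minus the 75th percentile of the array, read 3.15, 3.09 and 3.08 in the control samples, in order of replicate number, and 2.16, 2.22 and 2.21 after H/R. The groups did not overlap, and their difference of -0.93 ± 0.09 (SE, n = 2 arrays per group) had an adjusted p of 0.0058 (limma). Its promoter holds the pair of CArG boxes shown above.

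Neither measured actin passed the test. Actb, cytoplasmic beta-actin, read 4.30, 4.35 and 4.35 in control and 4.29, 3.78 and 3.79 in H/R, a difference of -0.29 ± 0.19 (adjusted p = 0.30). H/R array 1 lay just below the controls and array 2 further below. The difference was -0.037 without array 2 and -0.54 without array 1. A second Actb probe gave -0.26 (adjusted p = 0.35). Actg2, an actin of smooth muscle, differed by 0.05 ± 0.13. Probes of actin genes can bind RNA of their near-identical relatives, so each actin value is uncertain as to its gene.

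Tagln (transgelin), an actin-binding protein often used as an SRF marker, read 5.06, 5.34 and 5.38 in control and 5.34, 5.23 and 5.21 in H/R, with a difference of 0.07 ± 0.14 (adjusted p = 0.73). The groups overlapped. Its relative Tagln2 differed by 0.22 ± 0.13 (adjusted p = 0.28), with all H/R scans above all control scans. Cnn1, a calponin, and Cald1, caldesmon, differed by -0.07 and -0.27. The myosin light chain Myl9 differed by -0.06 and the non-muscle myosin heavy chain Myh9 by -0.64 ± 0.24 (adjusted p = 0.11). For Myh9 control array 1 stood apart at -0.41, against -1.07 and -1.11 in the other control scans, and without control array 1 the difference was -0.30.

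Cross-linkers and filament turnover held the largest fall. Wdr1, which helps cofilin take filaments apart, read 3.62, 3.19 and 3.17 in control and 1.18, 1.75 and 1.76 in H/R. It fell to 0.261 of its control signal, a difference of -1.94 ± 0.25 (adjusted p = 0.0096). Actn1, an alpha-actinin that cross-links filaments, read 3.03, 2.43 and 2.44 in control and 1.67, 1.54 and 1.54 in H/R. It fell to 0.458 (difference -1.13 ± 0.21, adjusted p = 0.025), and all H/R scans lay below all control scans. The related Actn4 and the cross-linker Flna differed by -0.10 and -0.16 and did not pass the test.

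At adhesion sites 2 of 5 measured genes fell (40%), beside 9.62% of all coding genes. Vasp, which promotes filament growth at adhesions, read 2.77, 2.64 and 2.62 in control and 1.65, 1.62 and 1.59 in H/R. It fell to 0.474 (difference -1.08 ± 0.10, adjusted p = 0.0051), with H/R arrays that lay close together. Fermt2 (kindlin-2), an integrin activator, read 2.59, 2.69 and 2.69 in control and 1.91, 2.02 and 2.02 in H/R. Its difference of -0.67 ± 0.10 passed the test (adjusted p = 0.014). Vcl (vinculin), which links integrin sites to actin, read 4.83, 4.99 and 5.01 in control and 4.84, 4.70 and 4.71 in H/R, so that the groups overlapped (difference -0.14 ± 0.11, adjusted p = 0.40). Tln1 (talin) differed by 0.02. Zyx (zyxin) differed by -0.71 ± 0.34 (adjusted p = 0.19), and its arrays disagreed: the difference was -0.27 without H/R array 2 and -1.15 without H/R array 1.

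All 5 LIM-domain genes had probes, and 2 of them fell (40%), beside 9.62% of all coding genes. Pdlim5, which docks kinases at the sarcomeric Z disc, read 0.15, 0.34 and 0.33 in control and -0.91, -0.93 and -0.91 in H/R. It fell to 0.449 (difference -1.16 ± 0.11, adjusted p = 0.0051), and the groups stood far apart. Fhl2, a LIM-only cofactor known to bind Srf, read 1.63, 1.55 and 1.55 in control and 1.24, 1.15 and 1.13 in H/R. Its fall was the smallest of the 9, with a difference of -0.40 ± 0.10 (adjusted p = 0.045), and it did not pass the threshold without control array 1 (adjusted p = 0.14) or without control array 2 (adjusted p = 0.082). Pdlim7 differed by a like amount, -0.39 ± 0.11, and did not pass the test (adjusted p = 0.063). Csrp1 and Fhl1 differed by -0.09 and -0.11. Fhl1 carries a CArG box, as Fhl2 does.

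Of 7 measured YAP/TEAD targets 2 fell (28.6%), beside 9.62% of all coding genes. Ccn1 (Cyr61), a secreted matricellular protein, read 1.97, 2.27 and 2.24 in control and 1.14, 1.08 and 1.05 in H/R. It fell to 0.497 (difference -1.01 ± 0.13, adjusted p = 0.0099), with no overlap. Its family member Ccn2 (connective tissue growth factor) read 5.11, 5.27 and 5.28 in control and 5.41, 5.06 and 5.05 in H/R. There the groups overlapped, the H/R arrays lay on either side of the controls, and the difference was 0.04 ± 0.16 (adjusted p = 0.86). Whether Ccn1 and Ccn2 differed from each other in their response was not tested.

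Ankrd1, a stress-responsive cardiac repeat protein and YAP target, read 4.34, 4.65 and 4.64 in control and 4.66, 4.39 and 4.39 in H/R (difference 0.03 ± 0.16, adjusted p = 0.91). Its groups overlapped too. Axl, a receptor tyrosine kinase, read -1.0, -1.60 and -1.60 in control and -2.41, -2.23 and -2.19 in H/R. It fell to 0.497 (difference -1.01 ± 0.22, adjusted p = 0.034). Without control array 1 its difference was -0.71 and did not pass the threshold (adjusted p = 0.053), and a second Axl probe gave -0.90 (adjusted p = 0.059). Amotl2 and Lats2, both negative regulators of YAP that YAP itself induces, differed by 0.21 ± 0.10 (adjusted p = 0.17) and -0.20 ± 0.09 (adjusted p = 0.17). Ajuba, a LIM protein that inhibits the Hippo kinases, differed by -0.08. The factors Yap1, Wwtr1 and Tead1 were among the genes not measured here.

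**Figure D2:**
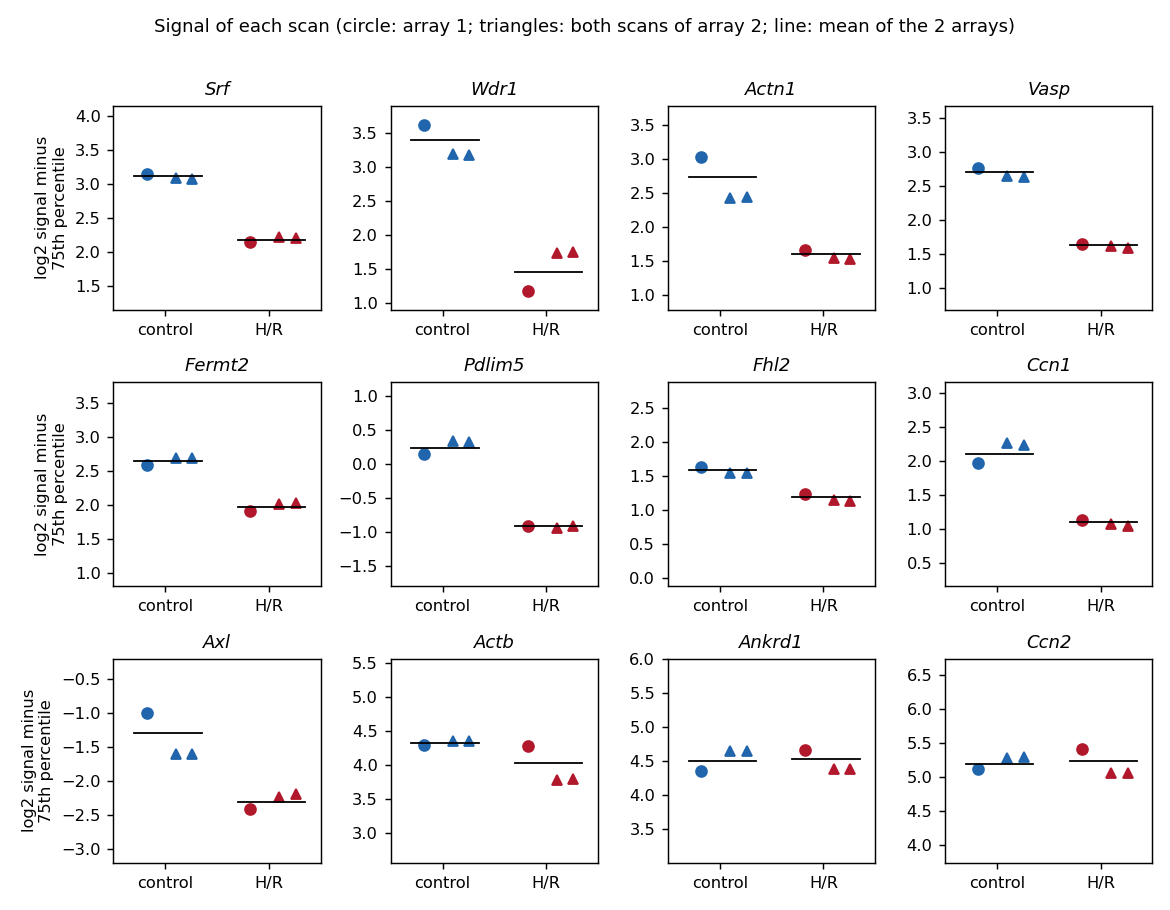
Log2 signal minus the array's 75th percentile (y axis, each panel spanning the same range of log2 units) in every scan of 12 genes, with circles for array 1, triangles for both scans of array 2 and a line at the mean of the 2 arrays. In the 9 genes that fell the groups do not overlap, while in Ankrd1 and Ccn2 they do. In Actb H/R array 1 lies just below the controls and H/R array 2 further below.

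The genes that fell were not the brightest ones. Of the 15 genes brighter than the median of the 30, none fell (median difference -0.07), and of the other 15, 9 fell (median -0.71). Over all coding genes 9.62% fell, and their share on either side of this split is not given here. The 1001 brightest coding genes held 16 of the 30, and 0 of these 16 fell, beside 61 of the 1001. Spearman's correlation of signal with difference was 0.82 over the 30 genes and -0.20 over 10001 coding genes, as a description, since all points share the same arrays. Signal is the brightness of a probe and does not rank genes by RNA abundance.

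The background was also read among genes of like brightness. Among the 6005 coding genes at least as bright as the dimmest of the 30, 11% fell and 12.9% rose, with non-overlapping scans below control in 34.1% and above in 36.1%. Among the 2501 brightest coding genes, 9.6% fell and 6.92% rose, with scans below control in 34.5% and above in 29.4%. These 2501 included 24 of the 30 genes, and 5 of the 24 fell (20.8%).

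**Figure D3:**
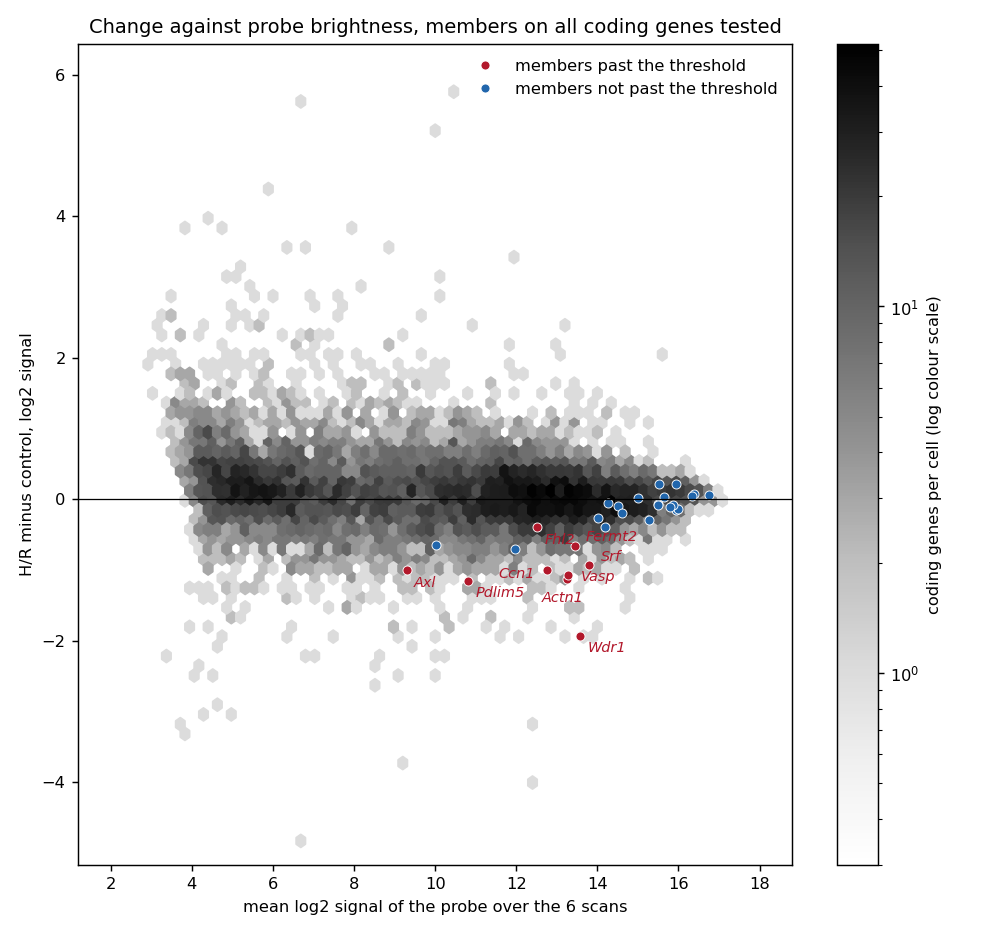
Log2 difference of H/R from control (y axis) against the mean log2 signal of the probe over 6 scans (x axis) for 10001 coding genes in grey and the 30 genes in colour, red where they fell. The 9 red points lie left of the brightest blue points, and none of the 16 that are among the 1001 brightest coding genes is red.

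The arrays of a group were also set against each other. A gap of over 0.4 log2 units between the arrays of at least 1 group was present in 8 of 30 genes (26.7%), against 15.7% of coding genes. H/R array 1 read higher than H/R array 2 in 23 of 30 genes (76.7%), against 52.5% of coding genes. Control array 1 read higher than control array 2 in 12 of 30 (40%), against 37.0%. The part of these gaps in the calls was not tested.

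Other genes of the pathways were described from 5 lists of 82 genes that exclude the 39. Of these 59 had a probe and 56 were tested, and 3 rose and 7 fell (12.5% lower, median -0.13), beside the 9.62% and 16.2% of all coding genes. When the H/R arrays were left out in turn, fewer of these genes passed the threshold in each direction, and so did fewer of all coding genes. Each such fit leaves 1 array in the H/R group, so its calls cannot be set beside the shares above. Myocd (myocardin), the muscle cofactor of Srf, read 0.25, 0.28 and 0.29 in control and -0.50, -0.56 and -0.56 in H/R (difference -0.80 ± 0.09, adjusted p = 0.0074). It was the 1 cofactor of 3 tested that fell. The ternary complex factors Elk3 and Elk4, which bind Srf in place of MRTFs, differed by -0.16 and -0.37 (adjusted p = 0.34 and 0.056), Elk1 was well above background in 0 of 6 scans, and Mrtfa and Mrtfb were not measured here.

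Among 10 tested regulators of actin assembly, Rock2 alone passed the test (10% lower, beside 9.62% of all coding genes). Rock2, a kinase that acts on myosin and, through other kinases, on cofilin, had a log2 difference of -0.96 ± 0.09 (adjusted p = 0.0052). Rhoa, a small GTPase, differed by -0.19 ± 0.10 (adjusted p = 0.21). Of 20 other SRF/MRTF targets tested, 3 fell (15%) and none rose (median 0.01), beside 9.62% and 16.2% of all coding genes. These were Tes (testin, an adhesion LIM protein) by 1.20 ± 0.13, Tpm3 (a tropomyosin) by 0.57 ± 0.12 and Nexn (nexilin, a Z-disc protein) by 0.46 ± 0.09, with adjusted p of 0.0067, 0.032 and 0.028. Acta1 and Actg1, whose CArG boxes are shown above, differed by -0.25 and 0.22 and did not pass the test.

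In the Hippo list 2 of 14 tested genes rose and none fell, beside 16.2% of all coding genes that rose and 9.62% that fell. Wwc2, a scaffold of the KIBRA family that activates the Lats kinases, rose by 0.68 ± 0.09 (adjusted p = 0.011). Tead2, a DNA-binding partner of YAP, rose by 0.55 ± 0.09 (adjusted p = 0.019). Lats1, a core Hippo kinase, differed by -0.20 ± 0.10 (adjusted p = 0.19).

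Among 9 other YAP targets tested, 2 fell (22.2%) and 1 rose (median 0.27), beside 9.62% and 16.2% of all coding genes. Fjx1, a secreted ligand-like protein, fell by 1.06 ± 0.12 (adjusted p = 0.0070). Ptx3, a soluble pentraxin, rose by 0.55 ± 0.10 (adjusted p = 0.021) from a dim signal of 21.1 to 27.9 units in control.

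**Figure D4:**
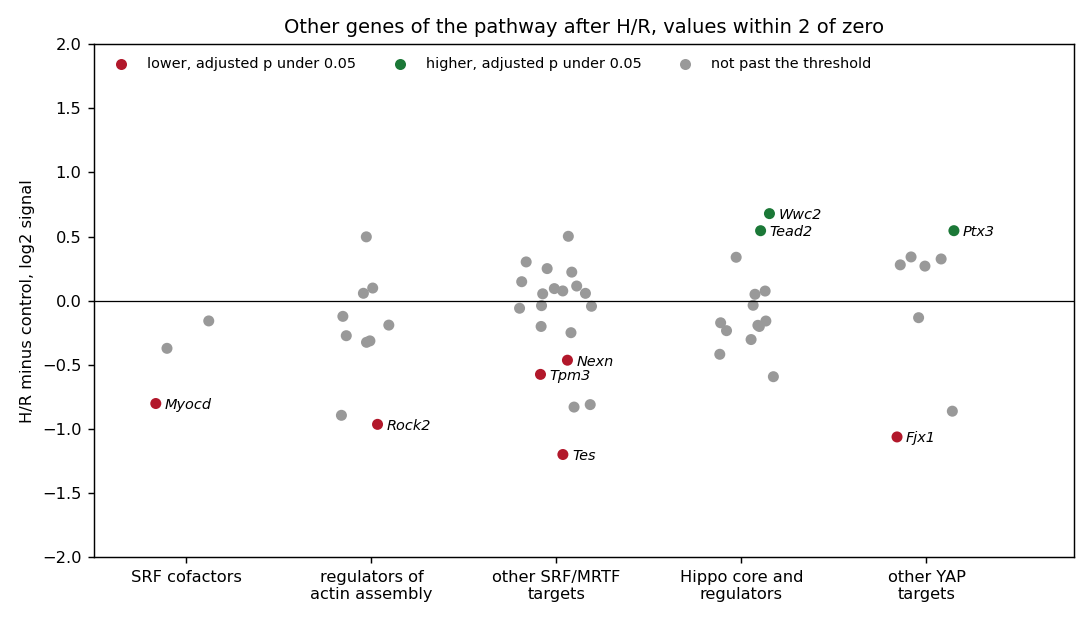
Log2 difference of H/R from control (y axis, limited to 2 on either side of zero) for 55 of the 56 tested genes of 5 further lists (x axis, points spread sideways for legibility), coloured by the result of the test. The 3 genes that rose are Wwc2, Tead2 and Ptx3, and the lowest labelled point is Tes at -1.20.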

How the data were processed

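RNA of rat H9c2 cells was measured on 1-colour (Cy3) Agilent arrays. Per the file headers the authors extracted spot intensity with Agilent Feature Extraction 11.0.1.1, corrected for background and spatial trend within each array. The array design was built on rn4 per the file headers, and its names were updated through RefSeq accessions (GRCr8, names only). The deposited files also hold the raw median intensity of spot and background, and other columns used here are flags coded 0 or 1. A deposited log2 table (16841 probes) was used as an alternative; its columns correlated with the scanner log2 values at r of 0.99982 to 0.99994 and had medians of 9.182 to 9.187. How it was normalized is not stated here.

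Spots that were controls or outliers were dropped, remaining spots were averaged per probe, and each array's 75th percentile over probes was subtracted from the log2 signal. It lay at 1769 to 2634 units per scan. Of 24684 probes 24578 were usable in all files, and 15899 passed the filter (3 of 3 scans well above background in either group) and were tested. The number of arrays, 2 per group, limits the precision. Replicates 2 and 3 were averaged as 1 array because each pair shared 36 spots with a non-uniform background (at most 1 in other pairs). The fit used limma 3.58.1 (lmFit, eBayes, two-sided, 2 residual and 2.86 prior degrees of freedom) in R 4.3.3, with Python 3.11.15, pandas 2.3.3 and matplotlib 3.10.9. It was tested on simulated data.

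The percentile was first taken over spots, which called 10 of the 30 genes lower. It was changed to probes, which calls 9, after both results were seen, because that matched the processing of an earlier analysis of these data. The spot version is kept as an alternative. The planned normexp alternative (offset 50) used the median spot signal, since the files used here hold no mean signal.

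The genes and lists were chosen with earlier results of these data known. Values are given in full for every listed gene past the threshold and for Srf, Actb, Tagln, Vcl, Ankrd1, Ccn1 and Ccn2 whatever their result, and the rest by range, count or difference. From the other lists up to 4 genes per list and direction past the threshold were named, with Rhoa, Lats1, Mrtfa and Mrtfb. A gene that this rule names is not reported here, though the counts include it. A protocol field mentions mouse cortex as the source of RNA, against the rat cell line of the other labels. Its design text speaks of 3 independent experiments per group, whereas the files show 2 arrays. Alternatives covered scaling, background, the dim-probe filter, the source of values, the treatment of scans, a replicate block, each array and scan left out, and the probe rule.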

Additional observations from a re-analysis of the deposited data

How the results depend on the processing

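The 9 genes that fell kept their direction in all 20 alternatives, and 0 changed sign. Leaving out scans or arrays could not change it, since all their H/R scans lay below all control scans. Of the 21 uncalled genes 12 changed sign in at least 1 alternative, among them Ccn2, Ankrd1, Tln1, Actg2 and Tagln. The called genes were picked for their differences on these same arrays, so this contrast is no separate support for them. Quantile normalization, the authors' deposited log2 table, the stricter filter, the first scan alone, leaving out any 1 scan of array 2, and the mean of a gene's probes each called the same 9. Scaling to the array median moved the median of all coding genes from 0.07 to -0.06 and their split from 9.62% lower and 16.2% higher to 14.9% and 11%. It gave the 30 genes a median of -0.31 with 11 lower, and 12 other pathway genes lower. After normexp 0 of the 30 genes passed (9 lower and 0 higher at an unadjusted p under 0.05 in limma), with a median of -0.42; 0% of all coding genes passed in either direction, and 0 pathway genes rose and 0 fell (1 and 7 unadjusted). With no filter on dim probes 2 of the 30 were lower (10 unadjusted), and 0 pathway genes rose (5 unadjusted) and 2 fell; 0.81% of coding genes were lower there, and the adjustment ran over more probes (24578). With 6 scans as separate samples 1 of the 30, Amotl2, was higher and 12 lower, and 9 pathway genes rose and 21 fell; with the scan as a block too, these were 1, 11, 7 and 18. Of all coding genes 23.0% were lower and 31.3% higher in the first of these fits, and 20.24% and 28.45% in the second. Both fits count repeat scans as samples. With the percentile over spots, chosen after seeing the data, 10 were lower, Pdlim7 being added, beside 10.9% of coding genes.

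Leaving out arrays or scans gave 4 to 9 of the 30 genes lower and 0 higher, a median of -0.24 to -0.13, and 0 to 3 pathway genes higher and 5 to 8 lower. Where 1 array was left in a group, it was assumed to vary like the other group. The lowest count of 4 came without H/R array 1 or without both scans of H/R array 2, where 2.36% and 2.48% of coding genes were lower. No pathway gene rose in either (4 and 6 at an unadjusted p under 0.05 in limma). Without control array 1 the median difference of all coding genes was 0.04. Where 1 scan of array 2 was left out, 9.47% to 9.59% of coding genes were lower and 16.0% to 16.2% higher. Both shares were smaller in every fit that left out an array. The replicate block left 9 of the 30 lower (Zyx in, Fhl2 out) and 0 higher, with a median of -0.18. It gave 4 pathway genes higher and 10 lower, beside 16.2% of coding genes higher and 10.1% lower. Only 2 array numbers exist, and same-numbered arrays deviated together at r = 0.15 over 15899 probes, so the numbers were not taken to pair the samples. The cause of these shifts was not tested otherwise.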
